A study of Mus musculus with 3 samples.

Results

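Immature neurons without Calb2 were taken from mouse dentate gyrus as cell barcodes with at least 2 UMIs of Sox11, at least 1 detected gene of Dcx, Igfbpl1, Neurod1, Tac2, Sema3c and Cd24a, and 0 UMIs of Calb2. A UMI (unique molecular identifier) counts 1 captured RNA molecule. Barcodes with 2 or more detected genes of the Cajal-Retzius neuron set (Reln, Ndnf, Lhx1, Lhx5, Trp73, Nhlh2) or of the cycling set (Mki67, Top2a, Cdk1, Ube2c, Birc5, Cenpf) were left out. Of 8105 barcodes, 1876 were kept at a minimum of 200 detected genes and under 10% mitochondrially encoded UMIs, and 57 of these met the rule. The rule itself used measured values, so the levels of its genes are given as a description.

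The study compared the dentate gyrus of running, aged and control mice by droplet-based single-cell RNA sequencing (10x Genomics Chromium 3' version 2). The runner library came from mice given a running wheel for 12 days, the aged library from non-running mice of 14 months, and the control library from 8-week-old littermates of the runners without a wheel. All 3 libraries carry the strain label hGFAP-eGFP, a line with green fluorescent protein driven by the human GFAP promoter. The design text describes WT mice and mentions that reporter in its account of the aged group. The tissue was dissociated with trypsin, no cell sort is described, and how many mice went into a library is not stated. With 1 library per group, no difference between runner, aged and control could be tested: intervals around shares, levels and ratios are 95% intervals that cover counting error only.

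Granule neurons are born throughout adult life in the dentate gyrus. Neural stem cells give rise to intermediate progenitors, marked by Eomes (Tbr2) and proneural factors such as Neurog2 and Neurod4, and these give rise to neuroblasts and immature neurons that carry the microtubule-associated protein doublecortin (Dcx) and the transcription factors Sox11 and Neurod1. Calb2 encodes calretinin, a calcium-binding protein that new granule neurons of the mouse make for a short time after they leave the cell cycle and lose as they mature. The rule therefore does not separate cells before that window, cells after it and cells whose calretinin RNA was not captured.

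The runner library held 3808360 UMIs in 3328 barcodes, the aged library 2537567 UMIs in 2421 and the control library 2330698 UMIs in 2356. The filters kept 969 runner, 393 aged and 514 control barcodes, with median depths of 1754, 1413 and 1457 UMIs per cell. Scrublet, a doublet caller run per library, marked 6, 2 and 2 of them and none of the 57 members, and no barcode was removed for it. Before filtering, the runner and control libraries shared 10 barcodes, aged and control shared 10, and runner and aged shared 8. A member was involved in 1, 0 and 1 of these cases, and leaving out all shared barcodes, an alternative chosen after seeing the data, changed no share or count of the members by over 1.5 times. Igfbpl1 and Tac2 are not listed in the aged table.

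In the control library most immature neurons were without Calb2, while in the runner library most carried it. The 57 members were 32 runner, 4 aged and 21 control cells. They made up 3.30% of kept barcodes in the runner library (exact Clopper-Pearson interval 2.27% to 4.63%), 1.02% in the aged library (0.278% to 2.59%) and 4.09% in the control library (2.55% to 6.18%). The runner share was 0.783 points below control, with a Newcombe interval from -3.07 to 1.14 points that spans 0. The aged share was 3.07 points below control, with an interval of the difference from -5.24 to -0.966 points. Immature neurons with at least 1 Calb2 UMI, chosen by the same rule, numbered 119 runner (12.3% of kept barcodes), 5 aged (1.27%) and 5 control cells (0.973%). In that group the runner share was 11.3 points above control (9.0 to 13.6).

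Cells without Calb2 were thus 32 of 151 immature neurons in the runner library (21.2%, 14.97% to 28.6%), 4 of 9 in the aged library (44.4%, 13.7% to 78.8%) and 21 of 26 in the control library (80.8%, 60.6% to 93.4%). The runner interval lay below the control interval, and the aged interval overlapped both. As Newcombe differences from control, runner stood at -59.6 points (-71.8 to -39.6) and aged at -36.3 points (-64.0 to -1.94), both clear of 0. Because a shallow cell can miss a rare RNA, cells with at least 1000 UMIs were also thinned to 1000 UMIs and the rule applied again. Shallower cells were left out of this. The share without Calb2 was then 36 of 113 in the runner library (31.9%, 23.4% to 41.3%), 4 of 7 in the aged library (57.1%) and 15 of 19 in the control library (78.9%, 54.4% to 93.9%). Its difference from control was then -47.1 points in runner (-61.9 to -23.0) and -21.8 points in aged (-56.3 to 13.2), the latter spanning 0. At equal depth, members were 4.19% of 860 runner, 1.49% of 268 aged and 3.67% of 409 control barcodes with at least 1000 UMIs. The barcodes counted thus differ from those at full depth, and the aged library had 4 members in both. The runner-minus-control difference was then 0.519 points (-2.05 to 2.63), of the opposite sign to that at full depth and again spanning 0. The aged-minus-control difference was then -2.17 points (-4.64 to 0.519), an interval that also spans 0, unlike that at full depth. In microglia, which should lack Calb2, a Calb2 UMI was found in 1.39% of runner, 0.5% of aged and 0.833% of control cells. Whether the number of immature neurons changed in the tissue or other cells were recovered at other rates cannot be told apart from shares of barcodes.

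**Figure D1:**
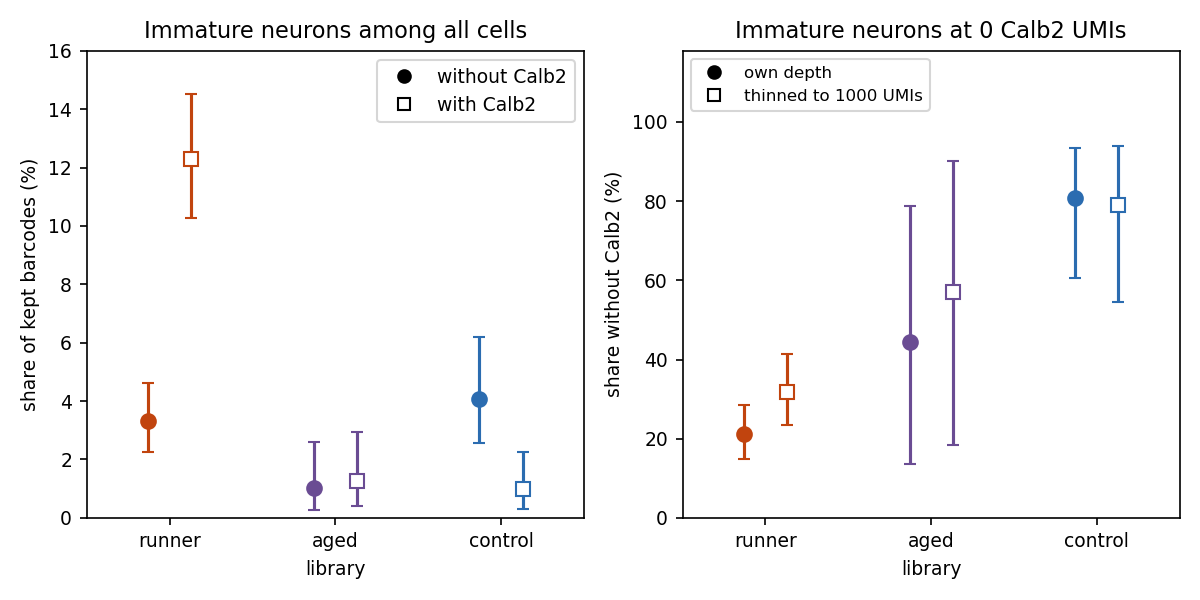
Left, the share of kept barcodes (%) that were immature neurons without Calb2 (circles) and with Calb2 (squares) in the runner, aged and control libraries; right, the share of immature neurons at 0 Calb2 UMIs at their own depth (circles) and after thinning to 1000 UMIs (squares). Bars are exact 95% intervals for counting error; the members lie at 3.30%, 1.02% and 4.09%, while the cells with Calb2 reach 12.3% in the runner library.

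The limits of the rule cut through a continuous range in the runner library. There, 25 immature neurons had exactly 1 Calb2 UMI, 47 had 2 to 4 and 47 had 5 or more, with a highest value of 19. The aged cells with Calb2 had 1 UMI in 2 cells and 2 to 4 in 3, and so did the control cells. Sox11 stood at its limit of 2 UMIs in 2 runner, 0 aged and 5 control members, and 6 runner, 3 aged and 2 control barcodes missed the rule with 1 Sox11 UMI. Members had a median of 1796 UMIs per cell in the runner library (1201 to 2805), 1438 in the aged (915 to 1900) and 1470 in the control library (705 to 3668). Runner cells with Calb2 were deeper, at a median of 2035 UMIs.

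**Figure D2:**
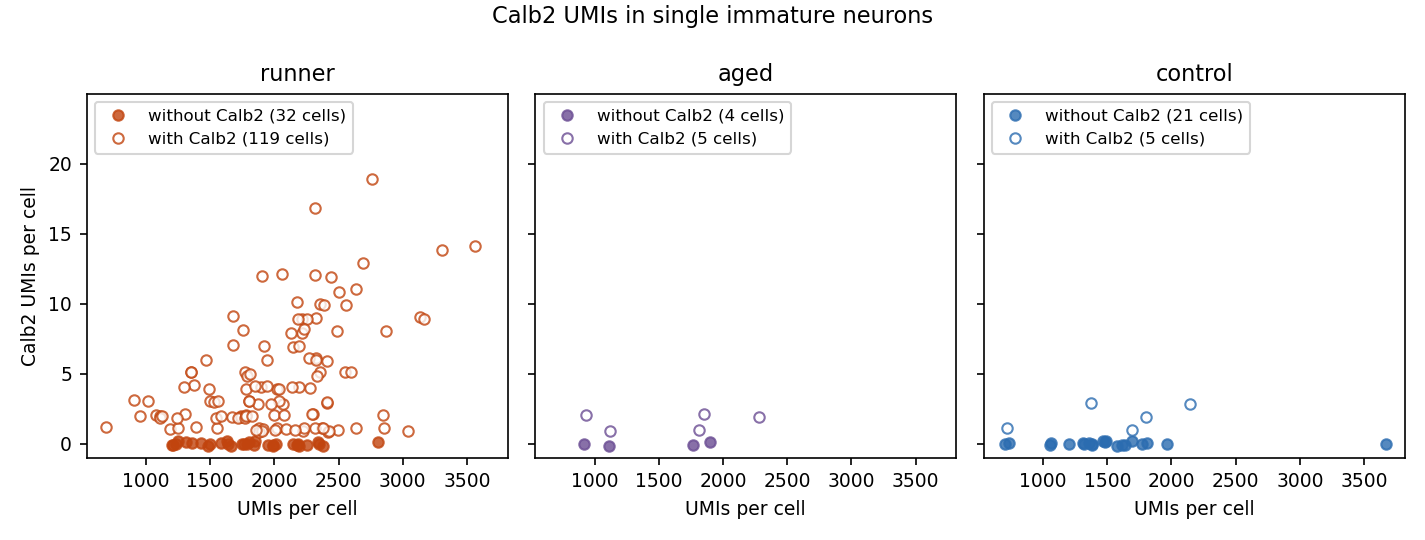
Calb2 UMIs (vertical axis, moved slightly up or down so that cells do not hide each other) against all UMIs per cell (horizontal axis) for immature neurons of the runner, aged and control libraries. Filled circles are the cells without Calb2 and open circles the cells with Calb2; in the runner library the filled circles lie between 1201 and 2805 UMIs, within the depth range of the open ones.

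The label was checked against its markers. Sox11, the rule's own gene, is a transcription factor of immature neurons at chr12:27334264-27342574 on the minus strand (GENCODE vM21, GRCm38). Members held a median of 6.5 Sox11 UMIs in the runner (2 to 17), 7.5 in the aged (7 to 14) and 5 in the control library (2 to 14). Dcx was detected in 17 of 32 runner, 4 of 4 aged and 12 of 21 control members, and Neurod1 in 19, 3 and 16. Igfbpl1 was detected in 17 runner and 10 control members, Cd24a in 18, 3 and 8, Sema3c in 16, 1 and 6, and the neuropeptide gene Tac2 in 9 runner and 2 control members. Over the 57 cells, 12 had 1 of the 6 genes, 10 had 2, 17 had 3, 13 had 4, 4 had 5 and 1 had all 6. Dcx and Neurod1 were found together in 22 of them. No member rested on Sox11 alone, by the rule, yet most carried a partial set of the markers at this depth.

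Genes were also ranked by their summed level in members over that in the other kept barcodes, as a description without a test. Sox11 (11.4-fold), Dcx (8.33), Igfbpl1 (8.14) and Neurod1 (7.15) were among the leading genes, but the rule used them. Outside the rule, the neuronal RNA-binding protein gene Elavl2 led at 10.9-fold, with ratios of 7.05 in the runner, 86.5 in the aged and 16.8 in the control library. The cyclin gene Ccnd2 stood at 10.5, with 10.51, 20.6 and 7.11, and Elavl4 at 9.20, with 6.37, 29.7 and 15.3. Lzts1 stood at 10.6, but this came from the runner library: its ratios were 11.5 in runner, 0 in aged and 2.34 in control. Cdk2ap1 (8.39), the growth factor gene Mdk (midkine, 7.77), Hmgb3 (7.35), the neuronal tubulin gene Tubb3 (6.16) and the transcription factor gene Sox4 (6.07) followed, each with a ratio above 1 in every library. The most abundant RNAs outside ribosomal and mitochondrial genes were the nuclear RNA Malat1 at 47913 CPM (UMIs per 1000000 UMIs) over all members, the histone H3.3 gene H3f3b at 10325 CPM and the actin-binding thymosin gene Tmsb4x at 8763 CPM. Ptma, Tmsb10, the microtubule destabiliser Stmn1, Actb, the tubulin Tuba1a and the transcription factor Zbtb20 came next, followed by Sox11 at 3815 CPM.

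Markers of other cell types were low but not all absent. No UMI of the 8 oligodendrocyte progenitor markers was found in 95402 UMIs of members, where 3 UMIs would amount to 31.4 CPM, and Aqp4 of astrocytes was likewise at 0. Of the 10 markers of inhibitory neurons, Gad1, Gad2 and Slc32a1 were at 0, while Dlx1 had 2 UMIs in runner and 2 in control members and Dlx6os1 had 2 in runner members. The list summed to 68.9 CPM in runner, 0 in aged and 63.1 CPM in control members, against 4.95, 9.87 and 5.56 CPM in microglia. The 10 astrocyte markers summed to 1034 CPM in runner, 1933 CPM in aged and 1957 CPM in control members, against 753, 806 and 965 CPM in microglia of those libraries; 8, 4 and 9 of the 10 were seen in members. Slc1a3, a glutamate transporter of astrocytes and neural stem cells, had the most UMIs of the list in runner members and was detected in 17 runner, 1 aged and 11 control members at 448, 351 and 600 CPM, against 170, 214 and 147 CPM in microglia. Oligodendrocyte markers summed to 327, 0 and 568 CPM in members, microglial markers to 379, 176 and 284 CPM, erythroid genes to 258, 351 and 63.1 CPM, and neural stem cell markers to 207, 0 and 31.6 CPM. Astrocyte and oligodendrocyte sums were lower in runner than in control members, and erythroid and stem cell sums higher. Their part in the comparisons below was not tested.

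Within the group, some cells carried genes of intermediate progenitors and others genes of mature neurons. Eomes was detected in 7 of 32 runner, 2 of 4 aged and 1 of 21 control members, Neurod4 in 8, 0 and 1, and Neurog2 in 2 runner members. At least 1 of Eomes, Neurog2, Neurod4 and Insm1, a set chosen after their values were seen, was detected in 14 of 32 runner (43.8%, 26.4% to 62.3%), 2 of 4 aged and 5 of 21 control members (23.8%, 8.22% to 47.2%). The runner and control intervals overlapped, and after thinning the shares were 28.1% of 32 runner and 26.3% of 19 control members. In the runner library, cells with Calb2 carried 1 of these 4 genes in 17 of 119 (14.3%, 8.55% to 21.9%), below the 43.8% of members. The aged and control libraries held 5 cells with Calb2 each, too few to show this contrast, and these genes were detected among them too. After thinning the runner shares were 28.1% of members and 9.48% of 116 cells with Calb2. Microglia carried them in 2 of 360, 0 of 200 and 0 of 240 cells, and no mature neuron did. The full list of 9 intermediate progenitor genes, these 4 among them, did not show this contrast in its sums. It came to 1137 CPM in runner members (880 to 1447) and 1096 CPM in runner cells with Calb2 (967 to 1236). Control members had 1483 CPM (1090 to 1973), above runner members with overlapping intervals, and aged members had 879 CPM.

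At least 2 of 10 mature glutamatergic markers (Slc17a7, Snap25, Syt1, Camk2a, Olfm1, Ncdn, Nrgn, Chn1, Rasgrp1, Ppp3ca) were detected in 10 of 32 runner (31.3%), 1 of 4 aged and 15 of 21 control members (71.4%). Microglia met the same count in 11.4%, 5% and 12.1% of cells at median depths of 1604, 1417 and 1512 UMIs. At 1000 UMIs per cell the shares were 15.6% of runner (5.28% to 32.8%) and 52.6% of control members (28.9% to 75.6%), against 4.78% and 6.57% of microglia. Progenitor genes without 2 mature marker UMIs were seen in 10 runner, 2 aged and 0 control members, and 2 mature marker UMIs without a progenitor gene in 6, 1 and 11. Both were seen in 4, 0 and 5 members and neither in 12, 1 and 5, so the cells formed no clean division.

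The granule neuron fate genes Prox1 and Neurod2 behaved differently from each other. Prox1, the homeobox gene that marks the granule lineage, was detected in 15 of 32 runner, 3 of 4 aged and 14 of 21 control members, at 327, 1054 and 789 CPM. Neurod2, a later proneural factor named here after its values were seen, was detected in 2 runner, 0 aged and 1 control member. Runner cells with Calb2 had Neurod2 in 49 of 119 (41.2%, 32.2% to 50.6%), against 6.25% of runner members (0.766% to 20.8%). After thinning the shares were 3.13% of runner members and 25% of 116 runner cells with Calb2. No microglia of the runner and aged libraries and 0.833% of those of the control library had a Neurod2 UMI.

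Against immature neurons with Calb2, the members held more RNA of a cyclin and of chromatin proteins and less of neurite and calcium-signalling genes. Summed over 15 chromatin genes, the groups stood apart in the runner and aged libraries, while their intervals overlapped in the control library. UMIs were summed per library and group and compared with edgeR's quasi-likelihood test with the library as a block, over 259 genes that passed the filter on low counts and were not part of the rule. With Benjamini-Hochberg adjustment at 0.05, 4 genes were higher (1.54%) and 10 lower (3.86%) in members, and 30 genes (11.6%) had an unadjusted p under 0.05. Because the groups were parted by measured Calb2 UMIs, genes that follow Calb2 had to differ with it. The libraries are the replicates, and the aged and control sums with Calb2 came from 5 cells each.

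Ccnd2, which encodes cyclin D2, a regulator of the step into S phase needed for adult granule neuron birth in the mouse, lies at chr6:127125162-127152193 on the minus strand. It had 1482 CPM in runner, 1230 CPM in aged and 758 CPM in control members, against 196, 625 and 259 CPM in cells with Calb2 of those libraries. Members were higher in 3 of 3 libraries and every member sum lay above every sum with Calb2. The log2 fold change was 2.44 (SE 0.37, edgeR adjusted p = 2.61e-06). Hmgn2, a nucleosome-binding high mobility group protein at chr4:133964738-133968650 on the minus strand, had 3653, 3514 and 1578 CPM in members and 841, 875 and 906 CPM in cells with Calb2. Again the groups did not overlap, and the log2 fold change was 1.92 (SE 0.17, edgeR adjusted p = 3.81e-14). In single cells, Hmgn2 was detected in 27 of 32 runner, 4 of 4 aged and 11 of 21 control members.

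Hmgb2, a DNA-bending protein abundant in dividing cells, had 603, 1757 and 189 CPM in runner, aged and control members, against 171, 0 and 518 CPM in cells with Calb2. Members were higher in 2 of 3 libraries and lower in the control library, so the groups overlapped. The fitted log2 fold change was 1.64 (SE 0.46, edgeR adjusted p = 0.0252). H2afz, the histone variant H2A.Z, had 1758, 1230 and 568 CPM in members and 637, 1000 and 776 CPM in cells with Calb2, also higher in 2 of 3 libraries (log2 fold change 1.03, SE 0.29, edgeR adjusted p = 0.0252). Microglia expressed these chromatin genes too: a UMI of Hmgn2 was found in 32.5%, 23% and 30% of runner, aged and control microglia, while Ccnd2 was found in 2.22%, 0.5% and 2.08%. Hmgn2, Hmgb2 and H2afz have near-identical copies elsewhere in the mouse genome, so their counts are uncertain where reads could be shared.

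The promoters of 3 of the 4 higher genes are shown because these encode chromatin proteins. Ccnd2, the other higher gene, had no entry among the promoters. RefSeq promoters (GRCm38.p6, 250 bases before to 50 after the start, gene strand) were matched for Hmgn2 at chr4:133967942-133968241 on the minus strand, Hmgb2 at chr8:57511593-57511892 on the plus strand, and H2afz, listed as H2az1, at chr3:137864237-137864536 on the plus strand. The Hmgn2 window lies inside the GENCODE span of the gene given above, and the Hmgb2 window ends before the GENCODE start at 57511907. For these genes the annotations thus differ on the start. Capitals mark matches on either strand to the CCAAT box (CCAAT or its complement ATTGG) and, in Hmgb2, to TTTGAA (or TTCAAA).
Hmgn2: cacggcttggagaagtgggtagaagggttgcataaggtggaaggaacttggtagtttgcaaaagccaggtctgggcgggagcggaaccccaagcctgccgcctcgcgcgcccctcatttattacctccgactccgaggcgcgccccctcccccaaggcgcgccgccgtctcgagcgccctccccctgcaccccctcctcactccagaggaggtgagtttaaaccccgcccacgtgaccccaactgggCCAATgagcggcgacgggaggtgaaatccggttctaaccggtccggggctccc
Hmgb2: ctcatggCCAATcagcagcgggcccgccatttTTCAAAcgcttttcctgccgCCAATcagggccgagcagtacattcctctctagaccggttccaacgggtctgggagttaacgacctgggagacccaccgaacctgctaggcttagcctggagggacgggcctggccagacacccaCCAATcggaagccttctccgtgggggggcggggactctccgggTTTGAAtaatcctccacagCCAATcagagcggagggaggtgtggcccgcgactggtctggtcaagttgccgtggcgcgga
H2afz: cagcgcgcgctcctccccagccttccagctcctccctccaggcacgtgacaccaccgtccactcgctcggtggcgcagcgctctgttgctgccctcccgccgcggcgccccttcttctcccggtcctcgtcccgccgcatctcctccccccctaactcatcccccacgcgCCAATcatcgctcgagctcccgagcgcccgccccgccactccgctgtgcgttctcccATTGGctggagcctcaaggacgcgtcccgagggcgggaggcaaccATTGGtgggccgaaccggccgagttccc
CCAAT occurred 1 time in the Hmgn2 window, 4 times in that of Hmgb2 and 3 times in that of H2afz, and 37.4% of 32851 RefSeq promoters of the same length hold at least 1. TTTGAA occurred 2 times in the Hmgb2 window, against 17.9% of all promoters with at least 1. The E2F-like letters GCGGGAA occurred in none of these windows and in 4.60% of all promoters. Of the 10 genes lower in members, 6 were matched. CCAAT was in 3 of those 6 windows and TTTGAA in 2 of them (Nnat and Rtn1). These are matches of letters only.

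Among the genes lower in members, Nnat (neuronatin, a membrane protein of developing neurons) had 2568, 1054 and 1547 CPM in runner, aged and control members and 4224, 2001 and 4011 CPM in cells with Calb2. Members were lower in 3 of 3 libraries, although the runner members lay above the aged cells with Calb2 (log2 fold change -0.999, SE 0.20, edgeR adjusted p = 0.000613). Tubb2b, a beta-tubulin of growing neurons, had 1603, 879 and 1357 CPM in members and 2508, 2376 and 2459 CPM in cells with Calb2, without overlap (log2 fold change -0.84, SE 0.18, edgeR adjusted p = 0.000857). Stmn4, a neuronal stathmin that binds tubulin, had 138, 176 and 505 CPM in members and 504, 375 and 1035 CPM in cells with Calb2 (log2 fold change -1.56, SE 0.43, edgeR adjusted p = 0.0252). It was lower in 3 of 3 libraries, with overlap between libraries. Calm2 (log2 fold change -0.68), which encodes calmodulin, Tubb3 (-0.67), Rtn1 (-0.84), Id2 (-0.98) and Cd81 (-0.99) also fell. Calm2 and Cd81 were higher in members of 1 library each. Fos was called lower in the fit (-0.61) although members were higher in 2 of 3 libraries.

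Of the gene lists, the 15 high mobility group and chromatin genes had 7 members tested, all 7 above 0, 3 of them past the threshold, with a median log2 fold change of 0.82 beside -0.02 over all 259 genes. The whole list summed to 16854 CPM in runner, 20910 CPM in aged and 10037 CPM in control members. Cells with Calb2 had 10177, 11378 and 9187 CPM in those libraries. The control intervals overlapped, at 8964 to 11203 CPM in members and 7175 to 11589 CPM in cells with Calb2. Of 14 tested axon and cytoskeleton genes 3 were lower (Tubb3, Tubb2b, Stmn4) and none higher, with a median of -0.27. Of 7 tested granule lineage transcription factors none passed, at a median of -0.21, and the same holds for 77 ribosomal protein genes (0.09) and 20 respiratory chain genes (-0.05). No intermediate progenitor, S phase, GABA, survival or maturing granule neuron gene had enough counts to be tested. The calls depended on the method: DESeq2 kept Hmgn2 alone (adjusted p = 0.0473), while without a filter on low counts edgeR called none of 12477 genes (21 at an unadjusted p under 0.05). Without the runner library, which holds most cells, Hmgn2 had a log2 fold change of 1.40 and did not pass (edgeR adjusted p = 0.286); at 1000 UMIs per cell Hmgn2 still passed (1.92, edgeR adjusted p = 0.0012) while Nnat (0.0567) and Tubb2b (0.119) did not.

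**Figure D3:**
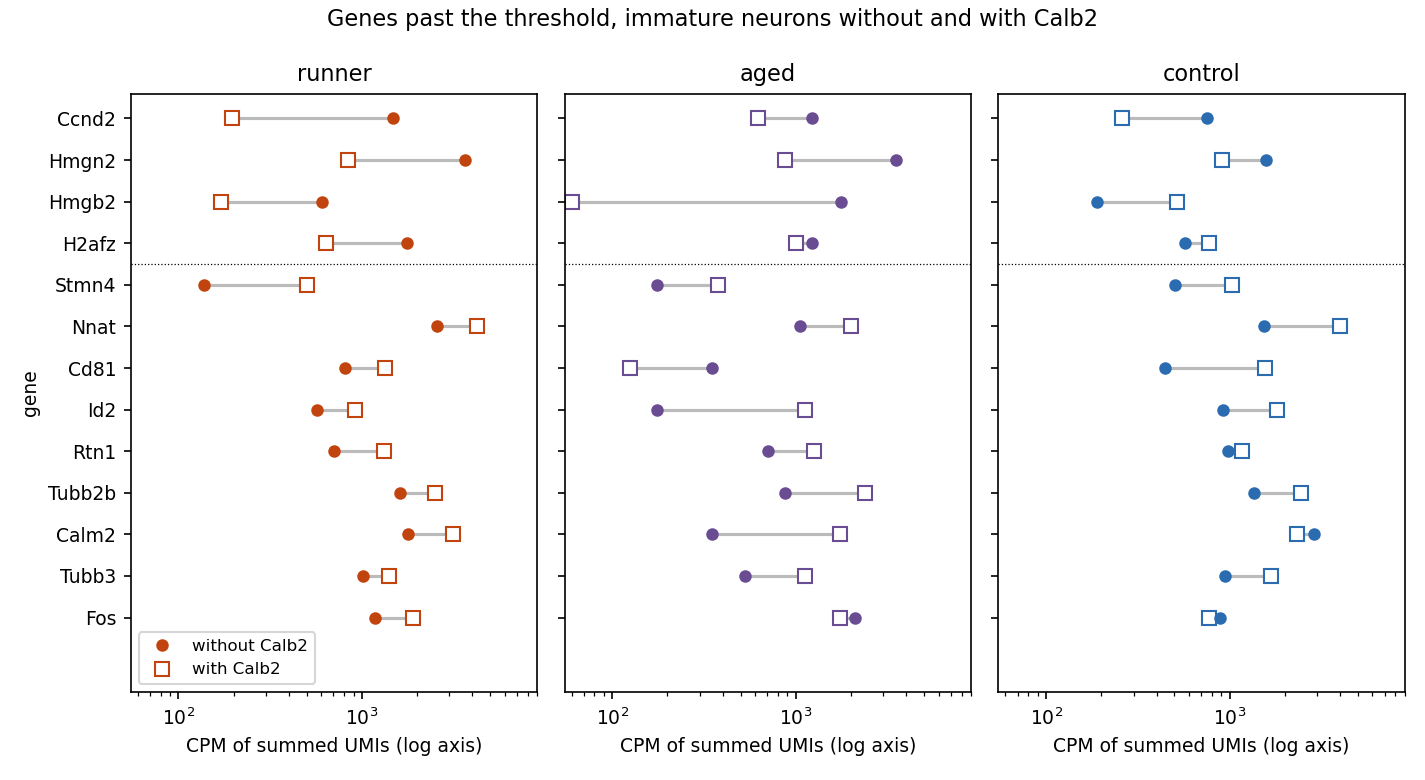
CPM of summed UMIs (log axis) of 13 of the 14 genes past the threshold in immature neurons without Calb2 (circles) and with Calb2 (squares), in the runner, aged and control libraries. Grey lines join the groups of a library and the dotted line parts the 4 higher genes from the lower ones; Hmgb2 was at 0 in aged cells with Calb2 and is drawn at the left edge.

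Mature glutamatergic neurons gave the wider contrast. They were kept barcodes with under 2 Sox11 UMIs, at least 4 of the 10 mature markers and 0 UMIs of Gad1 and Gad2. Under 2 detected Cajal-Retzius genes and under 3 of 6 microglial genes were allowed. They numbered 43 runner, 12 aged and 22 control cells. Members were higher than these in 159 of 555 tested genes (28.6%) and lower in 143 (25.8%) by edgeR's quasi-likelihood test with the library as a block, at a median of 0.07 on the log2 scale over all genes. Genes of either rule were not tested, but genes that follow Sox11 or the mature markers had to differ in their direction, so the counts describe how far the classes stood apart. Oligodendrocyte markers summed to 1142, 459 and 4358 CPM and astrocyte markers to 1302, 3480 and 1113 CPM in runner, aged and control mature neurons. Microglial markers summed to 283, 344 and 332 CPM in those cells. The part of these other-cell RNAs in the contrast was not tested.

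Of the genes higher in members, Mdk, a secreted heparin-binding growth factor, had the highest fold change, with 758, 351 and 821 CPM in runner, aged and control members, against 9.44, 0 and 0 CPM in mature neurons (log2 fold change 6.15, SE 0.74, edgeR adjusted p = 5.58e-15). Elavl4 (HuD), which stabilises RNAs of differentiating neurons, had 482, 1581 and 537 CPM in members and 0, 0 and 23.7 CPM in mature neurons (6.005, SE 0.78, edgeR adjusted p = 6.23e-13). Hmgb3 had 775, 527 and 379 CPM in members and 9.44, 38.2 and 0 CPM in mature neurons (5.24, SE 0.72, edgeR adjusted p = 7.63e-12). These and the other 9 highest genes, Sbk1 (4.99), Nnat (4.96), Tubb3 (4.94), Elavl2 (4.93), Sox4 (4.41), Cdk2ap1 (4.34), Hmgn2 (3.92), Tmsb10 (3.68) and Ttc28 (3.59), were higher in members in 3 of 3 libraries. Mdk, Elavl4 and Hmgb3 were near 0 in mature neurons and passed the filter on low counts through the members, which fixed their direction.

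Of the genes lower in members, Ptk2b, a calcium-activated tyrosine kinase, was at 0 UMIs in members of all 3 libraries and at 472, 535 and 521 CPM in mature neurons. With 3 counts put in place of 0 over all members, it was 15.7-fold lower, without counting error. Plppr4, a lipid-phosphatase-related protein of glutamatergic synapses, fell by 5.98 on the log2 scale, Grin2a, a subunit of the NMDA receptor, by 5.74, and the adhesion gene Cadm2 by 5.57. Syne1, Nptx1, Rasl10a, Dgkh, Gpr22, Ndrg4, Caly and Chchd10 fell by 4.61 or more. Each of these 12 genes was lower in members in 3 of 3 libraries, with edgeR adjusted p of 1.18e-06 or below. All were near 0 in members and passed the filter on low counts through the mature neurons. Their direction was thus fixed by the filter and is given as a description.

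Read by role, 7 of the 20 genes of the glutamate synapse list were tested and all 7 fell, at a median log2 fold change of -3.39. Snap25, Syt1, Camk2a, Slc17a7 and Nrgn of this list were mature markers of the gate and were not tested. Genes near 0 in members could be tested only through the mature neurons. The shared direction was thus partly set by the gate and the filter. Gria2, the AMPA receptor subunit that limits calcium entry, had 362, 0 and 947 CPM in runner, aged and control members and 2236, 1797 and 1469 CPM in mature neurons, without overlap (-2.11). Gria1 fell by 4.10, Camk2b by 3.39, the vesicle protein gene Syp by 3.98, Grin2b by 2.54 and Vamp2 by 1.84. Of 7 granule lineage transcription factors 6 rose (median 2.27): Sox4 by 4.41, Nfia by 2.73, Nfib by 2.35, Nfix by 2.27, Tcf4 by 1.42 and Zbtb20 by 1.21. Of 8 chromatin genes 7 rose (median 1.72), among them Hmgn2, Ptma (2.13) and Hmgn1 (1.98), while Hmgn3 was at -1.02 without passing (edgeR adjusted p = 0.0686). Ccnd2 (3.04) and its partner kinase gene Cdk4 (2.05), the 2 tested of the cell-cycle exit list, also rose.

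The cytoskeleton was not uniformly higher. Of 15 tested genes 10 rose and 2 fell, at a median of 1.91: Tubb3, Tmsb10, Stmn1 and Tubb5 led the rises, while Map1b fell by 1.64 and Dclk1 by 1.25. The neuronal RNA-binding list split likewise, with Elavl4 and Elavl2 higher and Celf2 and Celf4 lower among 5 tested. Of 82 ribosomal protein genes 62 rose (median 0.78) and none fell, and of 51 nuclear respiratory chain genes 17 fell (median -0.59) and none rose. Of 6 stress and immediate early genes 4 rose, Ier2, Egr1, Fos and Hspa8, which dissociation is known to raise as well. Gabra2, a GABA-A receptor subunit, fell by 2.12, the adhesion gene Nrcam by 4.23 and the glycolytic enzyme gene Aldoa by 2.80, while Ncam1 stood at 0.08 and did not pass. The 24 genes named at the top and bottom passed under every alternative that could give them a value.

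**Figure D4:**
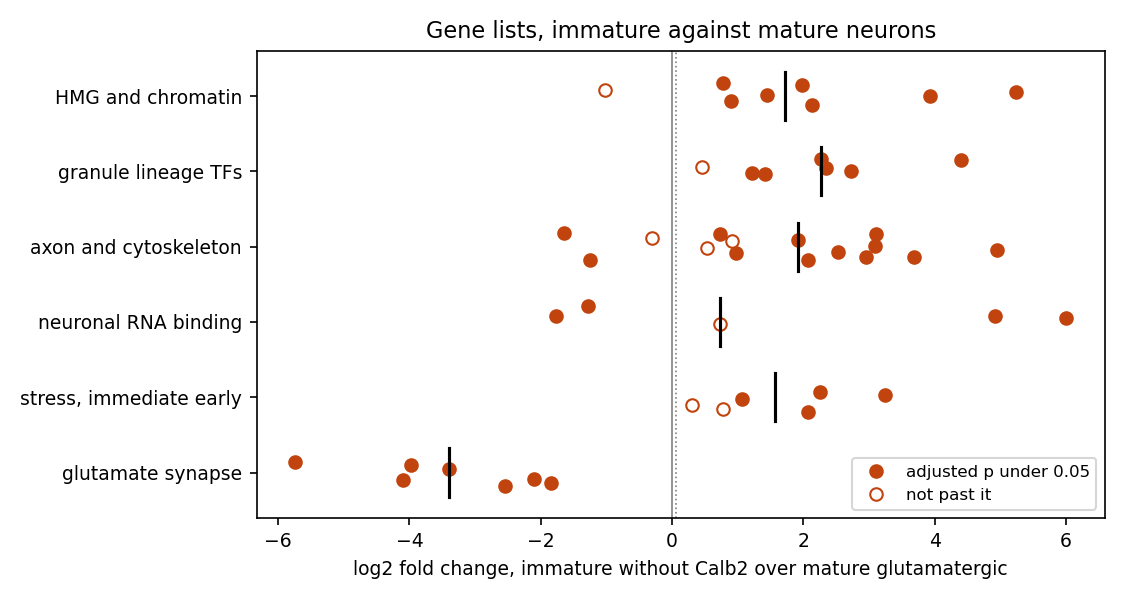
Log2 fold change of single genes of 6 lists, immature neurons without Calb2 over mature glutamatergic neurons (edgeR). Filled circles passed an adjusted p of 0.05, open circles did not, black bars are list medians and the dotted line is the median of all 555 genes. All 7 tested of the 20 glutamate synapse genes lie below 0, a direction partly set by the mature gate and the filter on low counts.

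Between runner and control, members of the runner library carried more chromatin-protein RNA and less RNA of mature neurons. Summed over 32 and 21 cells, 697 genes had at least 20 UMIs, and 43 (6.17%) were past 2-fold higher and 19 (2.73%) past 2-fold lower in the runner sum with an exact interval of the ratio clear of 1. The median log2 ratio over the 697 genes was 0.11. Mitochondrially encoded RNA, a sign of cell quality, came to 39342 CPM in runner members (37745 to 40990) and 56404 CPM in control members (53819 to 59082). In cells under 5% mitochondrially encoded UMIs, 8 of 8 chromatin genes lay above control, 3 past 2-fold. These are 2 libraries: the counts describe them and no gene is called changed, and the intervals are not adjusted for the number of genes.

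All 9 measured chromatin genes lay above control, 4 of them past 2-fold, at a median log2 ratio of 0.92. Hmgn2 had 212 UMIs in runner and 50 in control members, a CPM ratio of 2.31 (1.69 to 3.22). H2afz had 102 and 18 UMIs (3.09, 1.86 to 5.43), Hmgb2 35 and 6 (3.18, 1.33 to 9.26) and Hmgb3 45 and 12 (2.05, 1.07 to 4.25). Hmgb1 at 1.92, Set at 1.52, Hmgn1 at 1.43, Ptma at 1.34 and Nap1l1 at 1.09 did not reach 2-fold. With 10 UMIs as the minimum, 11 of 13 chromatin genes lay above control and 2 below (median 0.55), and after thinning to 1000 UMIs per cell 5 of 6 lay above, with 2 past 2-fold. The whole list summed to 16854 CPM in runner members and 10037 CPM in control members. Cell by cell the median was 13750 CPM in runner (4905 to 36720) and 9459 CPM in control members (3347 to 21309), so the cells overlapped widely. Without the deepest member of each library, an alternative chosen after seeing the data, the 9 genes still lay above control and 1 was past 2-fold. In cells with Calb2 the runner-over-control log2 ratio was -0.20 for Hmgn2 and -0.40 for H2afz, with 5 control cells. In mature neurons the log2 ratios of these genes were 0.34 and 0.16, and in microglia 0.55 and 0.25, on the same side of control as members. The difference of these classes from members was not tested.

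Of the glutamate synapse list, 3 genes were measured and all lay below control in runner members. Gria2 had 21 UMIs in 11 of 32 runner cells and 30 UMIs in 13 of 21 control cells (ratio 0.382, 0.208 to 0.690), and microglia had a Gria2 UMI in 1.94% and 1.25% of cells. Camk2a, a calcium-dependent kinase of excitatory synapses, had 9 UMIs in 6 runner and 18 UMIs in 13 control cells (0.273, 0.108 to 0.640). Its share of cells, 18.8% in runner and 61.9% in control members, stood beside 24.7% and 35.4% in microglia, so in the runner library it was at the background. Snap25 was at 0.546 (0.204 to 1.46). Ppp3ca, a calcineurin subunit (0.303, 0.125 to 0.693), Stmn4 (0.273, 0.101 to 0.676) and Prox1 (0.415, 0.216 to 0.785) were also past 2-fold lower. In cells with Calb2, with 5 control cells, the runner-over-control log2 ratio was 1.95 for Gria2, opposite to members. There it was -1.19 for Camk2a, 0.02 for Ppp3ca and -1.12 for Stmn4. In mature neurons the log2 ratios of these genes were 0.60, -0.15, -0.12 and -1.73. Their difference from members was not tested. Of 7 measured granule lineage transcription factors 2 lay above control and 5 below, and Prox1 was the 1 past 2-fold. Of 19 cytoskeleton genes 13 lay above control, as did 46 of 82 ribosomal protein genes and 24 of 51 respiratory chain genes, beside 409 of all 697 genes.

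The 10 mature markers together came to 655 CPM in runner and 2399 CPM in control members, against 414 and 612 CPM in microglia. A single control cell bore on this: it had 3668 UMIs, the most of all members, 2 Sox11 UMIs, and 9815 CPM of mature markers, the highest of all members. It also held all 18 control UMIs of Meg3, a long noncoding RNA abundant in mature neurons, which had 3 UMIs in runner members. Without the deepest member of each library the mature marker sums were 688 CPM in runner and 1428 CPM in control members. At 1000 UMIs per cell they were 625 and 2053 CPM.

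**Figure D5:**
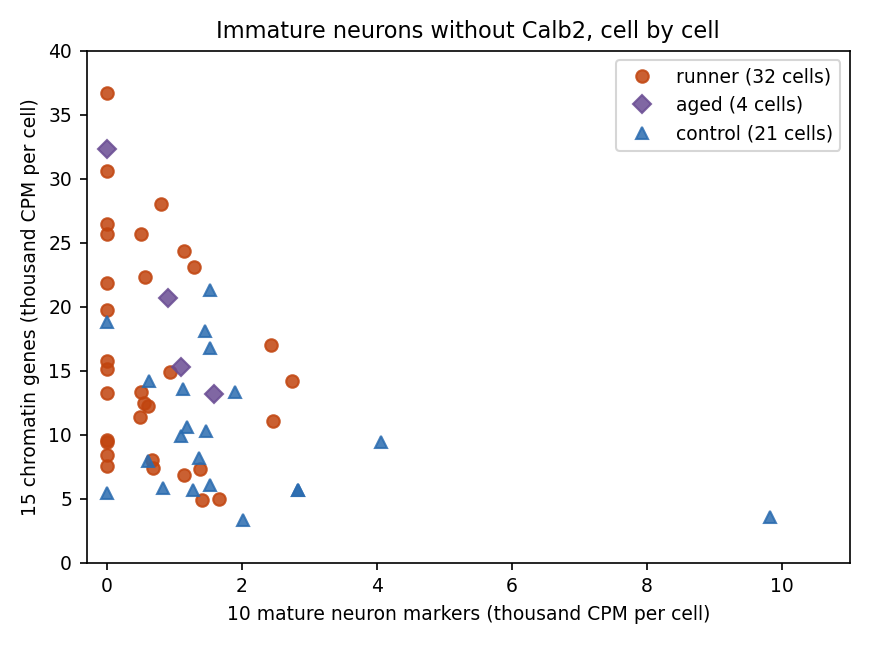
Summed level of 15 chromatin genes (vertical axis, in units of 1000 CPM per cell) against that of 10 mature glutamatergic markers (horizontal axis, in units of 1000 CPM per cell) in the 32 runner, 4 aged and 21 control members, 1 symbol per cell. The control cell at the far right has 9815 CPM of mature markers; 13 runner, 1 aged and 2 control cells are at 0.

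Of the other genes with the clearest ratios, Lzts1, a leucine zipper protein gene, had 23 UMIs in 17 of 32 runner members and 1 UMI in 1 of 21 control members (12.6, 2.04 to 517). The immediate early phosphatase gene Dusp1 had 19 and 1 UMIs, but 89.7% of runner and 88.3% of control microglia also had a Dusp1 UMI, and it stood above control in cells with Calb2 and microglia too. Tuba1a was also higher in runner members (2.08, 1.63 to 2.67). Btg2, an antiproliferative gene induced in neurogenic progenitors, was lower, with 12 UMIs in 8 runner and 31 UMIs in 13 control members (0.211, 0.0988 to 0.423), but about 90% of microglia of every library also had a Btg2 UMI (90.3% runner, 89% aged, 90% control). Its runner-over-control log2 ratio was 3.26 in cells with Calb2, with 5 control cells, 0.60 in mature neurons and 0.09 in microglia. Wdr89 (38 and 1 UMIs) and Gm8624 (58 and 6) were higher in runner members, and each stood on the same side of control in mature neurons and microglia of these libraries. Ftl1-ps1 had 26 and 2 UMIs, and by its name is a copy of Ftl1. Xist, the RNA of the inactive X chromosome, had 62 UMIs in 12 runner and 78 UMIs in 13 control members (0.434, 0.306 to 0.614), so both libraries held cells with and without it.

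The aged comparison rests on 4 cells with 5691 UMIs. Of 233 genes with at least 20 UMIs, 11 (4.72%) were past 2-fold higher and 6 (2.58%) past 2-fold lower in aged than in control members, again as a description of the libraries. Actb, the cytoplasmic actin gene, had 89 UMIs in aged and 122 UMIs in control members (ratio 4.06, 3.05 to 5.38), with 40 of the 89 in 1 cell. Ncam1, a neural adhesion gene, was at 5.06 (1.93 to 13.1), Nfia at 2.25 (1.29 to 3.798), Nfib at 2.13 (1.39 to 3.19), Elavl4 at 2.95 (1.16 to 6.99) and Hmgn2 at 2.23 (1.26 to 3.81). All 7 measured granule lineage transcription factors and all 5 chromatin genes lay above control, with medians of 0.50 and 1.17 beside 0.00 over the 233 genes, and 2 of each were past 2-fold. Without the deepest member of each library, 6 of the 7 transcription factors lay above control and 0 were past 2-fold, and after thinning 0 of 6 were. The 5 chromatin genes still lay above control without those members, 2 of them past 2-fold. Calm2 had 2 and 91 UMIs (0.122, 0.0146 to 0.455). Gria2 had 0 UMIs in aged members and 947 CPM in control members, with an exact interval of the ratio from 0 to 0.728. Cpe, a neuropeptide processing enzyme gene, had 0 UMIs against 852 CPM (0 to 0.815). With 3 counts put in place of 0, Gria2 was 1.80-fold and Cpe 1.62-fold lower, without counting error. The runner and aged comparisons share the control members, so their values are not independent of each other: for Hmgn2 the members' levels were 3653, 3514 and 1578 CPM, and for the whole chromatin list 16854, 20910 and 10037 CPM, in runner, aged and control.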

How the data were processed

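The measurement was droplet-based single-cell RNA sequencing of dissociated dentate gyrus in 3 libraries, 1 each of runner, aged and control mice. For each library the authors deposited whole-number UMI counts of gene symbols by cell barcode, not normalized. The submitters' processing notes list the tools Cell Ranger 2.1.1 and Seurat 3.1.0 and the build GRCm38, while aligner settings, annotation release and cell calling were not given in the sources used here. A gene missing from a table is given as not listed.

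From these counts, barcodes were filtered and the rule of the opening paragraph was applied. The members, gene lists and marker lists were chosen with earlier results of these data known. UMIs were summed per library and class (at least 3 cells) and divided by their total to give CPM. Classes were compared with edgeR 4.0.16 (quasi-likelihood, TMM, library block, filterByExpr, Benjamini-Hochberg over all genes tested) in R 4.3.3, tested on simulated counts first. DESeq2 1.42.0 was an alternative. The replicates are libraries of different groups, so the spread holds group differences too. Ratios between libraries have exact conditional binomial intervals, log2 ratios a pseudocount of 0.5, and shares Clopper-Pearson or Newcombe intervals. Named genes are those of the rule and lists, the 12 highest and lowest per edgeR comparison, and the 8 highest and lowest per library comparison by the interval bound nearest 1. Thinning to 1000 UMIs left out cells with fewer and used Scanpy 1.11.5, NumPy 2.4.6, SciPy 1.17.1 and pandas 2.3.3 under Python 3.11.15. A few genes that met these rules are not reported here.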

Additional observations from a re-analysis of the deposited data

How the results depend on the processing

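Values that moved are grouped by setting, and the cause was not tested. Without a mitochondrial limit, members were 1.18% of runner, 0.176% of aged and 1.09% of control barcodes, and aged minus control was -0.909 points; with at most 1 Calb2 UMI allowed, the runner share was 5.88% and runner minus control 1.41 points. Against cells with Calb2 (4 genes higher, 10 lower), the counts of higher and lower genes were 1 and 0 with DESeq2, 2 and 3 with its size factors in edgeR, 0 and 0 without a filter on low counts, 2 and 0 without the library block, 1 and 0 after thinning, and 2 and 0 where Calb2 meant at least 2 UMIs. Leaving out each library in turn gave 0 to 5 higher and 0 to 17 lower genes: 0 and 2 without runner, 2 and 0 without aged, and 5 and 17 without control. Over the fits without 1 library, Fos lay between -0.643 and 0.23 (log2), with the sign turned without the runner library, and it was -0.815 after thinning. Against mature neurons (159 and 143), DESeq2 gave 47 higher genes, no filter 105 and 403, sums of at least 10 cells 232 lower, and thinning 45 and 53. Leaving out each library gave 43 to 215 higher and 63 to 232 lower genes. For runner against control (43 and 19), 10 UMIs as the minimum gave 66 and 38 and thinning 21 and 8. For aged against control (11 and 6), 10 UMIs gave 22 higher, leaving out the deepest members 6 higher, and thinning 2 and 2. In all, 96 of these counts and shares stayed within the spread or within 1.5 times, and 41 moved. Of the values of single named genes, 572 kept direction and side, 87 no longer passed, 4 moved and 1 reversed. The comparison with cells with Calb2 could not be fitted on sums of at least 10 cells, which the runner library alone had for both classes. Between runner, aged and control, no paired analysis was possible because each group has 1 library. The comparisons between classes paired the classes within each library through the block. A median depth of 1413 to 1754 UMIs per cell limits every statement that a gene was not detected.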
